A study of Mus musculus with 11 samples.

Results

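The mitochondrial respiratory chain genes that are encoded in the nucleus were followed through 4 groups of mouse eggs and embryos. Members were the genes of the table whose symbols name a subunit of complexes I to V: Nduf with a, b, s, c or v and a number, Sdha to Sdhd, Uqcr genes and Cyc1, Cox4 to Cox8 genes, and Atp5 genes. The rule found 83 of 24421 genes: 36 of complex I, 4 of complex II, 9 of complex III, 17 of complex IV and 17 of complex V. It used no measured value. The respiratory chain passes electrons from NADH and succinate through complexes I to IV to oxygen, pumps protons across the inner mitochondrial membrane, and complex V, the ATP synthase, uses that gradient to make ATP. A few subunits are encoded in mitochondrial DNA and the rest in the nucleus. The mature oocyte makes almost no RNA of its own, the embryo inherits its mitochondria and early mRNA from it, and in the mouse the main wave of embryonic transcription comes at the 2-cell stage. The 13 genes of mitochondrial DNA were looked for, and 0 were among the genes of the table.

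The 11 libraries held 2 of maternal knockout 2-cell embryos (labelled Daxx f/f; Zp3-cre, m-z+), 3 of control 2-cell embryos (Daxx f/f, m+z+), 3 of knockout MII oocytes (Daxx f/f; Zp3-cre) and 3 of control MII oocytes (Daxx f/f). Daxx encodes a chaperone of histone H3.3. All mothers carried the floxed allele Daxxtm2Led on both chromosomes and were over 8 weeks old on a mixed C57BL/6J and 129/Sv background. Only the knockout mothers also carried Tg(Zp3-cre)93Knw, whose Zp3 promoter drives Cre in growing oocytes, so loss of Daxx and presence of the transgene cannot be told apart. Mothers received 5 IU PMSG and, 46 to 48 h later, 5 IU hCG, and oocytes were taken 20 h after hCG. Embryos came from in vitro fertilization with sperm of 8-week-old JF1 males, which carry Daxx, and were taken after 33 h in culture, so embryos and oocytes also differ in fertilization, culture and paternal strain. For each library 50 oocytes or embryos were pooled, and they came from 2 to 3 females. The labels do not say which pools shared females or a day, so a p-value measures only the spread between these pools.

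Counted reads per library numbered 17978192 to 25308468 in embryos and 32582998 to 39798586 in oocytes. A level is given as reads per 1000000 counted reads (CPM), and 3 reads equal 0.0754 to 0.167 CPM over the 11 libraries. CPM is a share of the library: in such pools, fewer cells and less RNA per cell cannot be told apart, and a change of all mRNA together does not show. Daxx had 22.8 and 25.5 CPM in maternal knockout embryos and 37.3, 35.2 and 46.7 CPM in control embryos. It had 8.20, 8.40 and 7.83 CPM in knockout oocytes and 97.2, 94.2 and 86.2 CPM in control oocytes, so no oocyte library went against its label. The 10 markers of the 2-cell embryo summed to 970.5 to 1018 CPM in maternal knockout embryos, 901.8 to 1060 CPM in control embryos, 3.25 to 5.61 CPM in knockout oocytes and 2.84 to 3.78 CPM in control oocytes. The 11 oocyte markers were present in every library. They summed to 2109 to 2135 CPM in maternal knockout embryos, 1608 to 1947 CPM in control embryos, 12980 to 13430 CPM in knockout oocytes and 12900 to 13060 CPM in control oocytes. Both maternal knockout embryo libraries thus lay above all control embryo libraries, and the part of this in the embryo comparison was not tested. The 16 markers of cumulus and granulosa cells summed to 42.1 to 58.6 CPM in the 5 embryo libraries and 295.2 to 365.8 CPM in the 6 oocyte libraries. Most of that was Serpine2. Over the oocyte libraries Cyp19a1 had 17.2 to 19.5 CPM and Has2 1.30 to 2.41 CPM, and their genotypes overlapped, as did the sum of the 16 markers. Cyp11a1 had 9.45, 9.06 and 9.18 CPM in knockout oocytes and 6.81, 7.39 and 5.94 CPM in control oocytes. Ptgs2 had 6.36, 5.13 and 4.87 CPM in knockout oocytes and 3.28, 2.29 and 1.28 CPM in control oocytes. For both of these genes every knockout library lay above every control library. Ptx3 and Pgr were at 0 reads in all oocyte libraries. Whether any of these reads came from cumulus cells was not tested. Reads of the mitochondrial leucyl-tRNA synthetase gene Lars2 took 1.81% and 0.552% of the maternal knockout embryo libraries, 0.482%, 1.85% and 0.871% of the control embryo libraries and 0.142% to 0.201% of the oocyte libraries; its part in the results was not tested.

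The respiratory chain genes took a smaller share of the mRNA in 2-cell embryos than in oocytes, and the difference was unequal between complexes. Their summed level was 1464.3 and 1448.6 CPM in maternal knockout embryos and 1369.0, 1363.1 and 1605.4 CPM in control embryos. In oocytes it was 2498.2, 2700.7 and 2534.2 CPM in knockouts and 2520.2, 2590.8 and 2426.0 CPM in controls. Every embryo library lay below every oocyte library, and at each stage the genotypes overlapped. The sum in control embryos was 57.55% of that in control oocytes. By complex, the same ratio was 17.45% for complex II, 34.73% for complex III, 36.44% for complex I, 71.51% for complex IV and 86.89% for complex V. Maternal knockout embryos stood at 19.41%, 31.63%, 36.85%, 70.92% and 84.59% of knockout oocytes for these 5 complexes in the same order. Complex V supplied 51.2% of the members' reads in maternal knockout embryos, 52.6% in control embryos, 34.2% in knockout oocytes and 34.8% in control oocytes. Of these reads Atp5b alone supplied 25.1% to 28.8% in control embryos and 8.08% to 8.35% in control oocytes. The ratio for complex V thus leans on 1 gene, and most of its members fell.

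**Figure D1:**
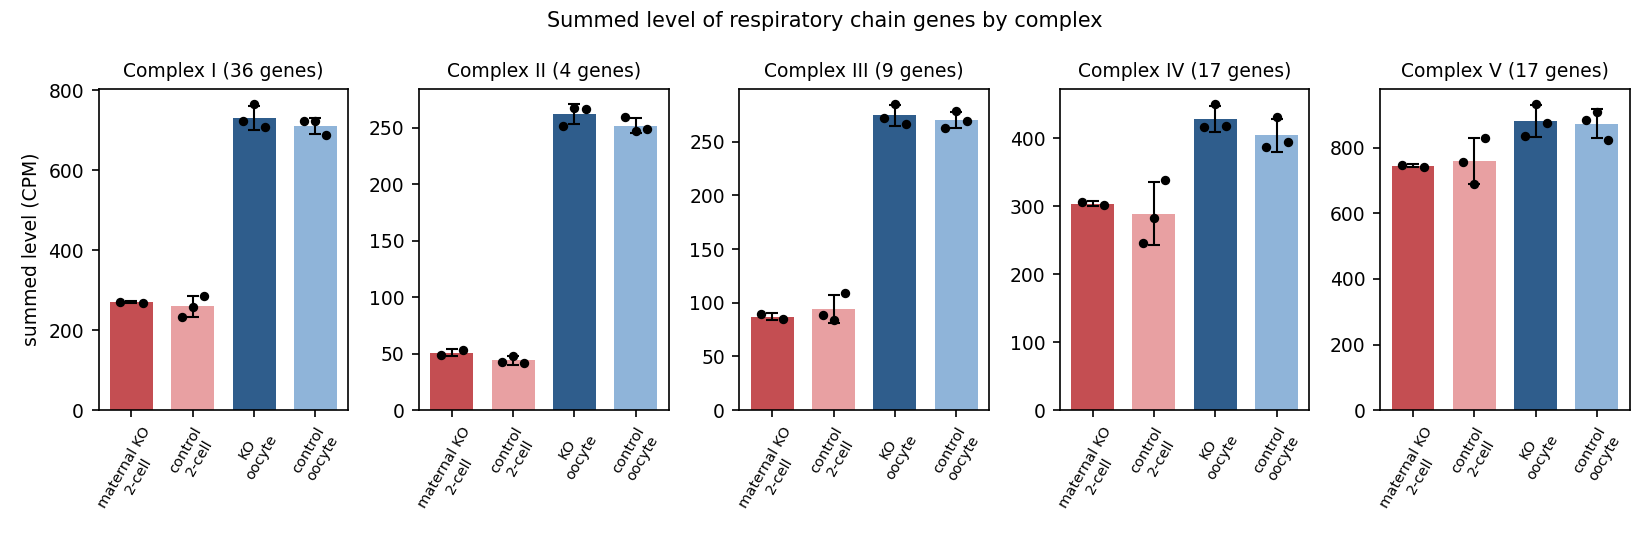
Summed level of the genes of each complex (CPM, linear axes from 0) in the 4 groups, with 1 point a library, bars for the group mean and error bars for the SD. Complexes I, II and III stand far lower in embryos than in oocytes. Complex V lies closest (759.6 ± 70.1 CPM in control embryos, 874.2 ± 44.2 CPM in control oocytes), and Atp5b is a large part of its embryo sum. Within a stage the genotypes differ by less than the stages do.

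In control embryos against control oocytes, 61 of the 79 members tested fell, 11 rose and 7 did not pass, by edgeR's quasi-likelihood test with Benjamini-Hochberg adjustment over all genes at 0.05. Over all 15577 genes tested, 40% fell and 43.1% rose. The median log2 fold change of the members was -1.46, against 0.07 over all genes tested. Of the members that fell, 50 fell at least 2-fold and 7 fell at least 10-fold: Ndufa5, Ndufa8, Ndufc2, Ndufs4, Sdhd, Atp5e and Atp5g2. Of the 11 that rose, 5 rose at least 2-fold. The 7 that did not pass were Ndufs8, Uqcrfs1, Cox7c, Atp5c1, Atp5g1, Atp5g3 and Atp5md. Cox7a1, Cox7b2, Cox8b and Cox8c had too few reads for the test. In 60 members every control embryo library lay below every control oocyte library and in 13 every one lay above, where the shares over all genes were 40.7% and 44.3%. Members with exonic bases in common with a protein-coding neighbour numbered 10, and near-identical pseudogene copies were found for 16 members. The sources used here give neither the rule for such reads nor whether strand was used. Among the 69 tested members without such a neighbour 9 rose and 54 fell, and among the members without such a pseudogene 10 rose and 47 fell.

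**Figure D2:**
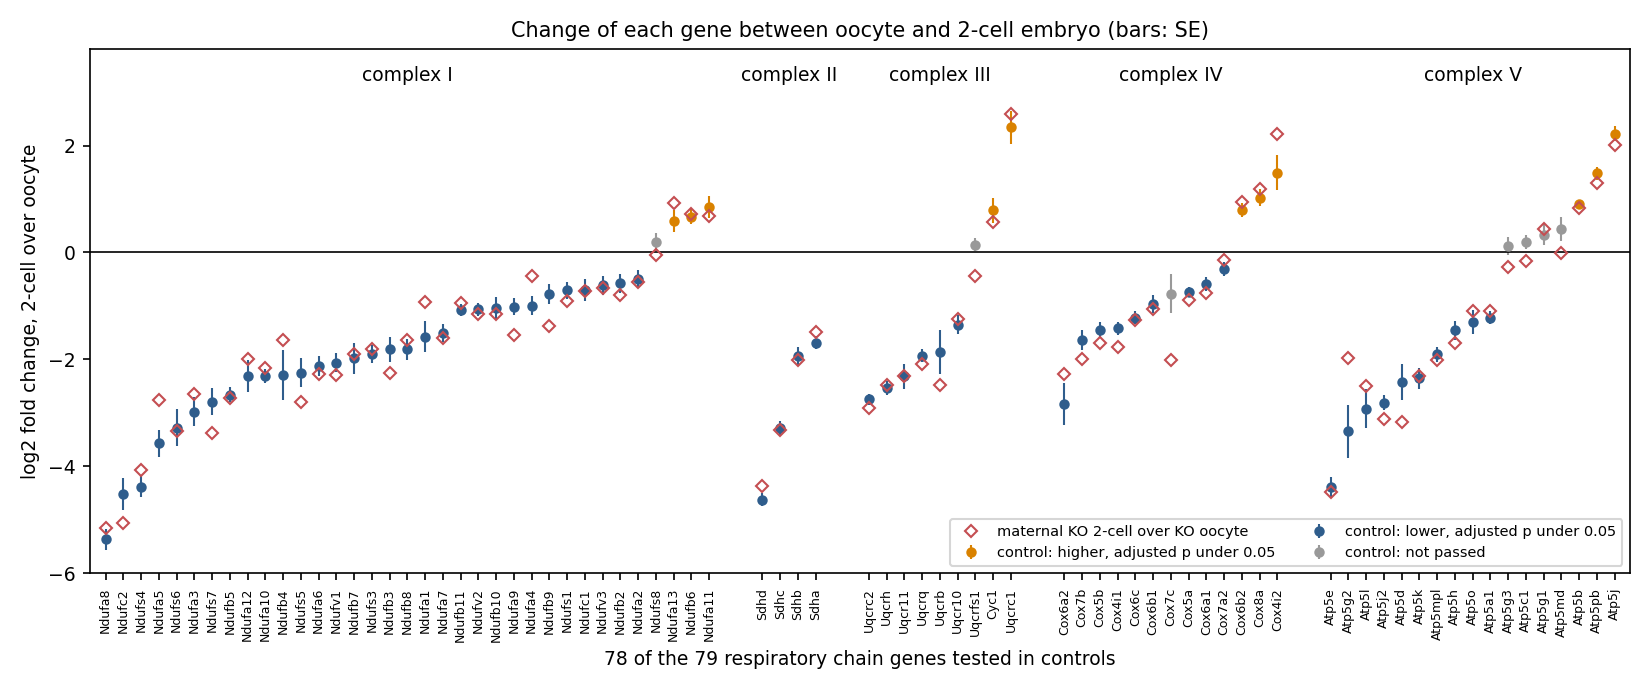
Log2 fold change of 2-cell embryos over oocytes for 78 of the 79 members tested in controls, ordered within each complex. Open diamonds are maternal knockout embryos over knockout oocytes, filled points are control embryos over control oocytes with their SE, coloured by the call in controls; most points lie below 0 in every complex, and the diamonds lie near the points.

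The promoter ends of 6 members are printed to show what lies upstream of risers and fallers: the 3 largest rises and the 3 largest falls in controls among called members with a RefSeq promoter and at least 10 CPM in the higher group, which leaves out Uqcrc1 and Cox4i2. Nuclear respiratory factor 1 (NRF1), the ETS factor GABPA and YY1 are known activators of respiratory chain genes. Their letters were searched on both strands from 250 bases before to 50 after the start in RefSeq (GRCm38.p6), which matched 67 of the 83 members and 18281 genes of the table. The letters were GCGCA, any base and GCGC in a row for NRF1, CCGGAAG for GABPA and AAGATGG for YY1. NRF1 letters were in 17 of the 67 members (25.37%) and 7.128% of all promoters, GABPA letters in 17 (25.37%) and 12.85%, and YY1 letters in 11 (16.42%) and 7.259%. At least 1 of the 3 was found for 39 members (58.21%), against 24.01% of all promoters. It was found for 6 of the 9 members that rose and had a promoter and for 28 of the 48 that fell, so risers and fallers both held these letters. Below, the 150 bases before the start are given 5′ to 3′, with matches that lie wholly inside them in capitals. The windows are chr16:84834977-84835126 for Atp5j, which has 2 start sites and of which the second is shown, chr3:105959264-105959413 for Atp5pb, chr19:7217617-7217766 for Cox8a, chr2:36049339-36049488 for Ndufa8 and chr9:50603850-50603999 for Sdhd, all on the minus strand, and chr7:97399853-97400002 on the plus strand for Ndufc2.
Atp5j: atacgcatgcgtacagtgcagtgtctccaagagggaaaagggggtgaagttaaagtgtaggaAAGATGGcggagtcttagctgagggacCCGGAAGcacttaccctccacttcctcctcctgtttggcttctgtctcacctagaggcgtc
Atp5pb: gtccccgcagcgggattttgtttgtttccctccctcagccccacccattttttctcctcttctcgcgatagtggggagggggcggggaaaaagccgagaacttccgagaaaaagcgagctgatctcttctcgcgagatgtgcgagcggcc
Cox8a: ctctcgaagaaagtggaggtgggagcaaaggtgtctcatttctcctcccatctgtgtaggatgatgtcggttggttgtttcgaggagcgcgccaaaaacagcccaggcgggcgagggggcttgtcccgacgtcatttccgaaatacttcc
Ndufa8: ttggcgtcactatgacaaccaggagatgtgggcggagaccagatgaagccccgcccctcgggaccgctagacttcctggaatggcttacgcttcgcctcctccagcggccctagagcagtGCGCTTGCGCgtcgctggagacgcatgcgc
Sdhd: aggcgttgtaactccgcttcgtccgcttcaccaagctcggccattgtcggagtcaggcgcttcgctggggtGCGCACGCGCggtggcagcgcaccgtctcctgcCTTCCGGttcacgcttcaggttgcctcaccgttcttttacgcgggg
Ndufc2: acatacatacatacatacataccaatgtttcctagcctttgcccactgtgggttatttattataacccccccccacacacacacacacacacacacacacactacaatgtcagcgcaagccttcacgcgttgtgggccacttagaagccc
Atp5j, a riser, held YY1 and GABPA letters in this stretch. The searched window of its other start site, which is not printed, held no letters of any of the 3 factors. Atp5pb and Cox8a, which also rose, held no whole match in the printed bases. Within the searched window both had matches that reach over or past the start: YY1 letters in Atp5pb and GABPA letters in Cox8a. Ndufa8 held NRF1 letters, Sdhd held NRF1 and GABPA letters, and Ndufc2 held none. These last 3 had the largest falls of all members tested.

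Complex I, the NADH dehydrogenase that feeds electrons into the chain, had lower mRNA levels in embryos for most of its subunits. Of its 36 members 32 fell, 3 rose and 1 did not pass, with a median log2 change of -1.81. All 8 members of the NADH-binding arm fell (median -1.56), 7 of the 8 members of the quinone-binding arm fell (median -2.01) and 16 of the 19 members of the membrane arm and other accessory subunits fell (median -1.81). The remaining member, Ndufa4, now placed with complex IV by its biochemistry, also fell. Of the 7 core subunits encoded in the nucleus, 6 fell (median -1.90), and Ndufs8, an iron-sulfur subunit, had 10.3 ± 1.5 CPM in control embryos and 8.86 ± 1.13 CPM in control oocytes (log2 0.19, edgeR adjusted p = 0.316). Here and below, ± after a mean of CPM is the SD over the 3 libraries of a control group.

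Ndufa8, an accessory subunit on the intermembrane side, had the largest fall of all members. It had 1.07 and 1.3 CPM in maternal knockout embryos and 1.22, 1.04 and 0.695 CPM in control embryos. In oocytes it had 39.6, 44.2 and 38.7 CPM in knockout oocytes and 39.9, 39.9 and 38.4 CPM in control oocytes. The level in control embryos was 41.1-fold lower than in control oocytes (log2 -5.36 ± 0.197 SE, edgeR adjusted p = 3.49e-10). Ndufc2, a membrane arm subunit, had 0.632 and 1.35 CPM in maternal knockout embryos and 2.22, 0.627 and 1.22 CPM in control embryos. It had 32.4, 32 and 29.1 CPM in knockout oocytes and 30.3, 31.3 and 29 CPM in control oocytes, a 22.9-fold fall in controls (edgeR adjusted p = 3.76e-08). Ndufs4, an accessory subunit of the NADH-binding arm whose loss in mice causes a disease like Leigh syndrome, had 1.82 and 1.93 CPM in maternal knockout embryos and 1.11, 1.67 and 2.0 CPM in control embryos. It had 29.2, 31.8 and 30.1 CPM in knockout oocytes and 33, 33.1 and 32.8 CPM in control oocytes, a 20.8-fold fall in controls. For these 3 genes every embryo library was far below every oocyte library. Ndufa5, of the quinone-binding arm, had 0.752 ± 0.218 CPM in control embryos and 8.88 ± 1.13 CPM in control oocytes (log2 -3.57). Ndufa4 had 16.7 ± 4.81 CPM in control embryos and 32.7 ± 1.55 CPM in control oocytes (log2 -0.99) and Ndufa6 had 3.49 ± 0.723 CPM in control embryos and 15 ± 0.947 CPM in control oocytes (log2 -2.13).

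The 3 members of complex I that rose belong to the membrane arm, and their rises were under 2-fold. Ndufa11, which contacts other complexes in supercomplexes, had 12.5 and 14.9 CPM in maternal knockout embryos and 9.29, 11.5 and 15.2 CPM in control embryos. It had 7.67, 9.04 and 8.05 CPM in knockout oocytes and 6.94, 5.58 and 7.11 CPM in control oocytes (log2 0.85 ± 0.198 SE in controls, edgeR adjusted p = 0.00178). Ndufb6, an accessory subunit, had 16.2 and 20.0 CPM in maternal knockout embryos and 18, 17.9 and 20.1 CPM in control embryos. It had 10.6, 11.2 and 9.98 CPM in knockout oocytes and 12.9, 11.6 and 10.2 CPM in control oocytes (log2 0.66, edgeR adjusted p = 0.000928). In both genes the embryo libraries lay above the oocyte libraries. Ndufa13, also known as Grim19, had 4.61 ± 0.342 CPM in control embryos and 3.03 ± 0.411 CPM in control oocytes (log2 0.58, edgeR adjusted p = 0.0195). Ndufa13 lost this call when control oocyte replicate 2 or 3 was left out. It shares 375 annotated exonic bases with Tssk6 on the opposite strand, which had 2.41 CPM in control embryos and 0.0626 CPM in control oocytes, and the part of those reads in its rise was not tested.

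Complex II, succinate dehydrogenase, is built only from nuclear subunits, and all 4 fell. Sdhd, a membrane anchor that binds heme and ubiquinone, had 4.9 and 4.54 CPM in maternal knockout embryos and 3.78, 3.13 and 4.04 CPM in control embryos. It had 88.7, 96.3 and 98.2 CPM in knockout oocytes and 89.8, 88.7 and 87 CPM in control oocytes. The fall in controls was 24.6-fold (log2 -4.62 ± 0.129 SE, edgeR adjusted p = 5.16e-11), and no embryo library came near an oocyte library. Sdhc, the other anchor, had 5.81 and 5.02 CPM in maternal knockout embryos and 5.06, 4.81 and 5.77 CPM in control embryos. It had 51, 55.9 and 49.7 CPM in knockout oocytes and 53.8, 47.7 and 48.9 CPM in control oocytes (log2 -3.29 in controls, edgeR adjusted p = 7.08e-10). The 2 anchors thus fell 24.6-fold and 9.77-fold, and the 2 catalytic subunits, which follow, had smaller log2 changes. Sdhb, the iron-sulfur subunit, had 4.07 and 3.04 CPM in maternal knockout embryos and 3.84, 3.34 and 3.73 CPM in control embryos. It had 14.7, 14.2 and 13 CPM in knockout oocytes and 14.6, 13.2 and 13.3 CPM in control oocytes (log2 -1.94). Sdha, the flavoprotein that oxidizes succinate, had 33.9 and 40.4 CPM in maternal knockout embryos and 29.6, 36.9 and 27.8 CPM in control embryos. It had 97.1, 101 and 106 CPM in knockout oocytes and 101, 97.5 and 99.4 CPM in control oocytes (log2 -1.68, edgeR adjusted p = 1.02e-07). The summed level of complex II was 50.8 ± 3.06 CPM in maternal knockout embryos, 43.9 ± 3.69 CPM in control embryos, 261.8 ± 8.90 CPM in knockout oocytes and 251.8 ± 6.69 CPM in control oocytes (SD, n = 2, 3, 3 and 3).

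Complex III, which passes electrons from ubiquinol to cytochrome c, split by subunit: 2 of its 9 members rose, 6 fell and 1 did not pass. Its 2 core proteins went in opposite directions. Uqcrc1 had 10.4 and 7.68 CPM in maternal knockout embryos and 7.18, 4.6 and 10.9 CPM in control embryos. It had 1.15, 1.67 and 1.51 CPM in knockout oocytes and 1.84, 1.18 and 1.41 CPM in control oocytes, a 5.05-fold rise in controls (log2 2.34 ± 0.314 SE, edgeR adjusted p = 2.37e-05). Uqcrc2 had 17.5 and 14.5 CPM in maternal knockout embryos and 17, 16.9 and 18.9 CPM in control embryos. It had 114, 119 and 115 CPM in knockout oocytes and 111, 115 and 122 CPM in control oocytes, a 6.7-fold fall in controls (log2 -2.74 ± 0.103 SE, edgeR adjusted p = 3.99e-10). The embryo and oocyte libraries of both genes did not overlap, in opposite order. Uqcrc2 shares 19.7% of its exon length with Pdzd9 on the opposite strand, which had 0.584 CPM in control embryos and 3.53 CPM in control oocytes, far under the levels of Uqcrc2.

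Of the catalytic subunits of complex III encoded in the nucleus, Cyc1 rose in controls and Uqcrfs1 did not pass. Cyc1, cytochrome c1, had 6.76 and 8.84 CPM in maternal knockout embryos and 6.67, 6.32 and 11.5 CPM in control embryos. It had 5.76, 4.92 and 4.5 CPM in knockout oocytes and 4.67, 4.72 and 4.61 CPM in control oocytes (log2 0.79 ± 0.23 SE in controls, edgeR adjusted p = 0.0075). Uqcrfs1, the Rieske iron-sulfur protein, had 22 and 20.0 CPM in maternal knockout embryos and 27.6, 26.2 and 31.1 CPM in control embryos. It had 26.2, 29.8 and 26.2 CPM in knockout oocytes and 26.2, 25.2 and 24.2 CPM in control oocytes. Its log2 change was 0.15 in controls (edgeR adjusted p = 0.261) and -0.43 in knockouts, where it fell (edgeR adjusted p = 0.00624). All 5 small subunits fell, with a median log2 change of -1.93. Uqcrh, the hinge protein that docks cytochrome c, had 7.66 ± 0.972 CPM in control embryos and 43.7 ± 2.55 CPM in control oocytes (log2 -2.54). Uqcrq had 11.7 ± 0.673 CPM in control embryos and 43.6 ± 1.61 CPM in control oocytes (log2 -1.93). Its span, but 0 of its exonic bases, overlaps the oocyte gene Gdf9, which had 188 CPM in control embryos and 2530.0 CPM in control oocytes.

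Complex IV, cytochrome c oxidase, reduces oxygen. Of its 13 members tested 9 fell, 3 rose and 1 did not pass, and their median log2 change was -0.77. Among the 10 ubiquitous subunits 8 fell and only Cox8a rose. Cox4i1, the main form of the largest nuclear subunit, had 24.5 and 22.5 CPM in maternal knockout embryos and 26.1, 24.6 and 33.1 CPM in control embryos. It had 74.4, 81 and 77 CPM in knockout oocytes and 72.3, 75.7 and 72.4 CPM in control oocytes (log2 -1.42, edgeR adjusted p = 3.57e-07). Cox5b, which binds zinc, had 6.37 ± 0.379 CPM in control embryos and 17.1 ± 1.94 CPM in control oocytes (log2 -1.44). Cox7b, which is X-linked, had 14.8 ± 4.58 CPM in control embryos and 45.4 ± 5.86 CPM in control oocytes (log2 -1.64), and the other X-linked members, Ndufa1 and Ndufb11, fell as well. Cox7a2 had 24.3 ± 3.92 CPM in control embryos and 29.6 ± 1.4 CPM in control oocytes, and its fall was at the threshold (log2 -0.31, edgeR adjusted p = 0.0481); it passed in 6 of 14 alternative analyses. Cox8a, a small membrane subunit, had 72.9 and 64.7 CPM in maternal knockout embryos and 44.2, 63.2 and 73.8 CPM in control embryos. It had 27.3, 31.3 and 28.6 CPM in knockout oocytes and 29.3, 30.4 and 27.7 CPM in control oocytes, a 2.03-fold rise in controls (log2 1.02 ± 0.156 SE, edgeR adjusted p = 6.93e-05). Every embryo library of Cox8a lay above every oocyte library.

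**Figure D3:**
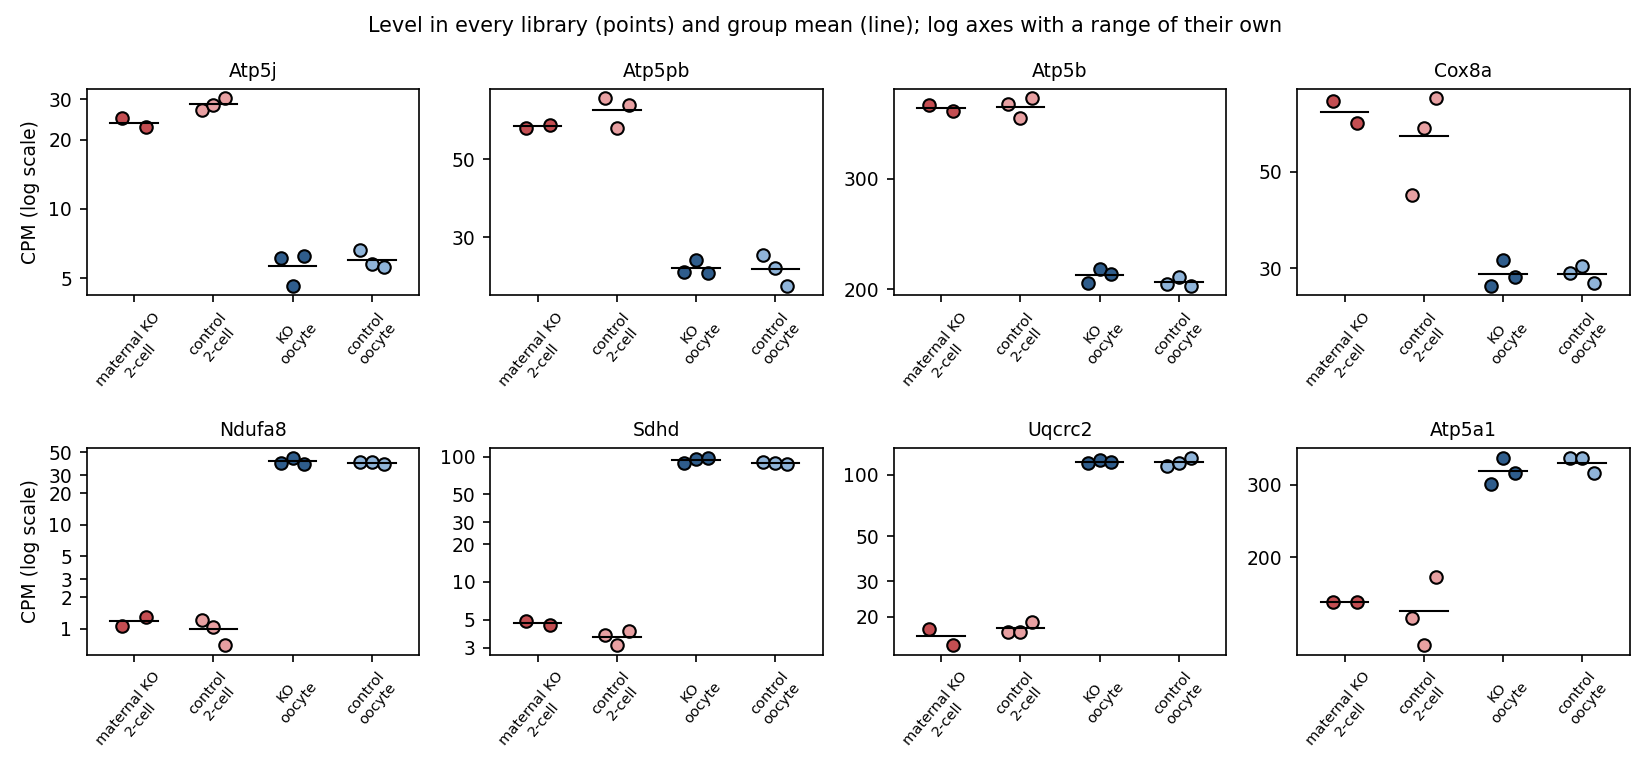
Level (CPM, log axes, a range of its own in each panel) of 8 members in every library, with the group mean as a line. Atp5j, Atp5pb, Atp5b and Cox8a stand higher in embryos of both genotypes, Ndufa8, Sdhd, Uqcrc2 and Atp5a1 stand lower, and the 2 genotypes lie close at each stage; 397 exonic bases of Atp5j are shared with Gabpa on the opposite strand.

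Several complex IV subunits exist as isoforms, a ubiquitous form and forms known from muscle, testis or lung, and the mixture of forms differed between stages. Shares were computed per gene length, from the width in the deposited table. Cox6b2, the form known from testis, made up 83.4% and 82.6% of Cox6b in maternal knockout embryos and 81.1%, 79.8% and 79.8% in control embryos. It made up 57.3%, 53.3% and 53.6% in knockout oocytes and 57.5%, 57.1% and 48.8% in control oocytes. Its share was higher in every embryo library than in every oocyte library. With annotated exon lengths in place of the widths it was 78.8% to 79.7% in maternal knockout embryos, 75.5% to 77% in control embryos, 47.1% to 51.1% in knockout oocytes and 42.6% to 51.4% in control oocytes, so which of the 2 forms was the larger part in oocytes depended on the length used. The level of Cox6b2 rose in controls (log2 0.80 ± 0.132 SE, edgeR adjusted p = 0.000132), with 46 ± 7.44 CPM in control embryos and 26 ± 2.58 CPM in control oocytes. Cox6b1, the ubiquitous form, fell (log2 -0.96, edgeR adjusted p = 0.000203), with 9.3 ± 1.81 CPM in control embryos and 17.8 ± 1.88 CPM in control oocytes.

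Cox4i2, the form known from lung and from low oxygen, made up 17.7% and 8.05% of Cox4 in maternal knockout embryos and 8.67%, 11.5% and 11.4% in control embryos. It made up 0.980%, 1.01% and 0.892% in knockout oocytes and 2.33%, 1.27% and 1.10% in control oocytes. Its level was 5.45 and 2.03 CPM in maternal knockout embryos and 2.56, 3.29 and 4.38 CPM in control embryos. It was 0.76, 0.851 and 0.715 CPM in knockout oocytes and 1.78, 1.01 and 0.833 CPM in control oocytes (log2 1.49 ± 0.329 SE in controls, edgeR adjusted p = 0.00121). With annotated exon lengths the share was 15.1% to 30.4% in maternal knockout embryos, 16.1% to 20.9% in control embryos, 1.79% to 2.02% in knockout oocytes and 2.21% to 4.62% in control oocytes, with the stages still apart. The higher share in embryos came with a rise of Cox4i2 and a fall of Cox4i1. Its span, but 0 of its exonic bases, overlaps Bcl2l1, at 141 CPM in control embryos and 184 CPM in control oocytes.

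The muscle and remaining testis forms were scarce. Cox6a2, the muscle form, made up 2.11 ± 0.922% of Cox6a in maternal knockout embryos, 1.56 ± 1.10% in control embryos, 5.76 ± 0.80% in knockout oocytes and 6.42 ± 0.953% in control oocytes. It fell (log2 -2.83, edgeR adjusted p = 3.53e-05), and so did Cox6a1 (log2 -0.59). Cox7a1, another muscle form, had 10 and 9 reads in maternal knockout embryos, 9, 5 and 13 in control embryos, 0 in each knockout oocyte library and 0, 1 and 0 in control oocytes. Among the stage comparisons it was tested only in that of the knockout libraries, where it was at least 5.2-fold higher in embryos, taking 3 reads per oocyte library as the floor. The 5 genes fixed as muscle markers summed to 2.13 to 2.33 CPM in maternal knockout embryos, 1.39 to 2.21 CPM in control embryos, 13.1 to 17.4 CPM in knockout oocytes and 8.47 to 9.67 CPM in control oocytes, mainly Myh2. Cox8c, a testis form, had 5 and 3 reads in maternal knockout embryos, 1, 2 and 5 in control embryos, 22, 21 and 11 in knockout oocytes and 10, 25 and 19 in control oocytes. Cox7b2 had at most 4 reads in any library and Cox8b had 0 in all 11.

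**Figure D4:**
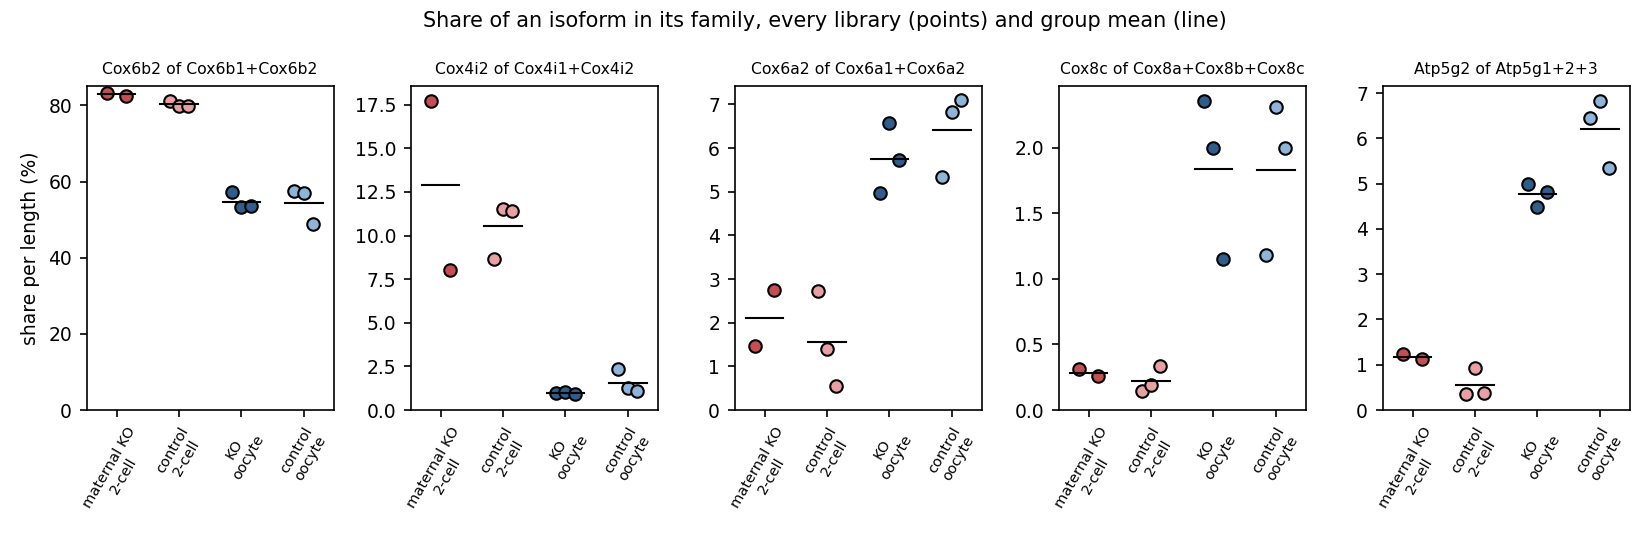
Share of an isoform in its family per gene length (percent, linear axes from 0, a range of its own in each panel) in every library, with the group mean as a line. Cox6b2 and Cox4i2 take larger shares in embryos, and Cox6a2, Cox8c and Atp5g2 take larger shares in oocytes.

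Complex V held rises in its head and stalk and some of the largest falls of all members. Of its 17 members 10 fell, 3 rose and 4 did not pass, with a median log2 change of -1.30. In the F1 head, where ATP is made, the alternating alpha and beta subunits went in opposite directions. Atp5b, the catalytic beta subunit, had 393 and 385 CPM in maternal knockout embryos and 394, 375 and 403 CPM in control embryos. It had 205, 215 and 212 CPM in knockout oocytes and 204, 209 and 203 CPM in control oocytes, a 1.87-fold rise in controls (log2 0.90 ± 0.0772 SE, edgeR adjusted p = 4.43e-07). Atp5a1, the alpha subunit, had 156 and 155 CPM in maternal knockout embryos and 142, 122 and 179 CPM in control embryos. It had 302, 349 and 319.8 CPM in knockout oocytes and 347, 348 and 320.3 CPM in control oocytes, a 2.33-fold fall in controls (log2 -1.22 ± 0.119 SE, edgeR adjusted p = 1.47e-06). The embryo and oocyte libraries of both genes were apart.

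The enzyme holds alpha and beta subunits in equal numbers, and their mRNA ratio, per gene length, was computed in every library. Atp5a1 stood at 0.306 and 0.312 of Atp5b in maternal knockout embryos and at 0.279, 0.252 and 0.344 in control embryos. It stood at 1.14, 1.252 and 1.17 of Atp5b in knockout oocytes and at 1.32, 1.29 and 1.22 in control oocytes. The ratio was thus below 1 in all embryo libraries and above 1 in all oocyte libraries. Its size depended on the length used: with annotated exon lengths it was 0.536 to 0.546 in maternal knockout embryos, 0.441 to 0.602 in control embryos, 1.99 to 2.19 in knockout oocytes and 2.14 to 2.3 in control oocytes. Atp5b alone supplied 26.8% and 26.6% of all members' reads in maternal knockout embryos, 28.8%, 27.5% and 25.1% in control embryos, 7.98% to 8.35% in knockout oocytes and 8.08% to 8.35% in control oocytes. Without Atp5b, the members' sum was 1071.3 and 1064.0 CPM in maternal knockout embryos, 974.7, 988.2 and 1202.3 CPM in control embryos, 2293.4, 2485.2 and 2322.6 CPM in knockout oocytes and 2316.1, 2381.4 and 2223.4 CPM in control oocytes.

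Of the other subunits of the head, Atp5c1, the gamma shaft, had 56.3 ± 10.7 CPM in control embryos and 48.2 ± 0.863 CPM in control oocytes and did not pass (log2 0.20, edgeR adjusted p = 0.175). Atp5e, the epsilon subunit, had 3.36 and 2.41 CPM in maternal knockout embryos and 2.17, 2.46 and 3.56 CPM in control embryos. It had 59.1, 66.5 and 62 CPM in knockout oocytes and 57.2, 65.1 and 47.5 CPM in control oocytes, a 20.9-fold fall in controls (log2 -4.38 ± 0.193 SE, edgeR adjusted p = 1.42e-09). Atp5d, the delta subunit, had 2.02 ± 1.34 CPM in control embryos and 10.9 ± 0.808 CPM in control oocytes (log2 -2.43, edgeR adjusted p = 3.22e-05). The 2 small subunits of the shaft foot thus both fell.

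Of the 4 subunits of the peripheral stalk, which holds the head still, 2 rose and 2 fell. Atp5pb, subunit b, had 61.4 and 62.5 CPM in maternal knockout embryos and 74.4, 61.3 and 71.4 CPM in control embryos. It had 23.9, 25.9 and 23.8 CPM in knockout oocytes and 26.7, 24.5 and 21.8 CPM in control oocytes, a 2.79-fold rise in controls (log2 1.48 ± 0.119 SE, edgeR adjusted p = 2.63e-07). Atp5pb is among the 16 members with a near-identical pseudogene. Atp5j, coupling factor F6, had 24.7 and 22.6 CPM in maternal knockout embryos and 26.9, 28.2 and 30.2 CPM in control embryos. It had 6.13, 4.63 and 6.22 CPM in knockout oocytes and 6.63, 5.75 and 5.57 CPM in control oocytes, a 4.67-fold rise in controls (log2 2.22 ± 0.14 SE, edgeR adjusted p = 2.83e-08). Its annotated exons share 397 bases, 12.7% of their length, with Gabpa on the opposite strand, which had 541 CPM in control embryos and 0.805 CPM in control oocytes. Reads of the 2 genes there cannot be told apart without strand, and the part of Gabpa reads in the rise of Atp5j was not tested. Atp5h, subunit d, had 6.38 ± 1.31 CPM in control embryos and 17.2 ± 1.44 CPM in control oocytes (log2 -1.46), and Atp5o, which links stalk and head, had 5.3 ± 1.95 CPM in control embryos and 12.8 ± 0.876 CPM in control oocytes (log2 -1.30).

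In the membrane part, Atp5j2, subunit f, had 8.93 and 10.4 CPM in maternal knockout embryos and 11, 9.61 and 13.5 CPM in control embryos. It had 74.4, 84.3 and 83.3 CPM in knockout oocytes and 80.1, 85.8 and 69.1 CPM in control oocytes, a 7.0-fold fall in controls (log2 -2.81 ± 0.14 SE, edgeR adjusted p = 4.04e-09). Of the 5 small membrane subunits 4 fell, with a median log2 change of -2.36. The c subunit that forms the proton-carrying ring is encoded by 3 genes with the same mature protein. Atp5g1 had 13.1 ± 3.74 CPM in control embryos and 10.2 ± 0.985 CPM in control oocytes (log2 0.33, edgeR adjusted p = 0.127) and Atp5g3 had 9.9 ± 1.39 CPM in control embryos and 8.94 ± 0.682 CPM in control oocytes (log2 0.12, edgeR adjusted p = 0.495), and neither passed. Atp5g2 had 0.0997 ± 0.0518 CPM in control embryos and 1.04 ± 0.174 CPM in control oocytes (log2 -3.35, edgeR adjusted p = 5.37e-05). It made up 1.18 ± 0.0755% of the family per length in maternal knockout embryos, 0.550 ± 0.325% in control embryos, 4.76 ± 0.267% in knockout oocytes and 6.21 ± 0.769% in control oocytes. Atp5g1 and Atp5g2 have near-identical pseudogenes, so these shares are uncertain.

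Levels per gene length ranked differently at the 2 stages. In control embryos the highest were Atp5b at 207.9 CPM per kb, Cox8a at 110.8, Cox5a at 77.3, Cox6b2 at 74.6 and Atp5a1 at 60.8. In control oocytes the highest were Atp5j2 at 164.3 CPM per kb, Atp5a1 at 139.3, Atp5e at 136.8, Cox5a at 126.9 and Atp5b at 109.3. Only Atp5b, Atp5a1 and Cox5a were in both lists. The widths in the table are often shorter than all annotated exons together, and with annotated exon lengths Atp5j2 ranked 25 in control oocytes. The median coefficient of variation was taken over members with a mean of 10 CPM or more in the group. It was 6.27% in maternal knockout embryos (27 members), 15.3% in control embryos (31), 5.99% in knockout oocytes (55) and 6.35% in control oocytes (52). The value for maternal knockout embryos rests on 2 libraries, where an SD is unstable, so it cannot show whether the embryo groups differed in spread.

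The stage change in the knockout libraries, which are separate from the control libraries, had the same pattern. Maternal knockout embryos against knockout oocytes had 63 of 81 members lower, 13 higher and 5 not passed, where 37.7% of all genes tested fell and 42.5% rose. The median log2 change of the members was -1.6, against 0.09 over all genes tested. Of the 79 members tested in both genotypes, 11 rose in both, 60 fell in both, 4 passed in neither and 0 passed in opposite directions. Agreement of calls was not counted over all genes, so it is not shown to be particular to the members. The log2 changes of the 2 genotypes differed by a median of 0.20. The largest differences were 1.38 for Atp5g2, 1.24 for Cox7c and 0.81 for Ndufa5, and none of these passed the test of the difference described below. Atp5g1 rose in the knockout libraries (log2 0.44, edgeR adjusted p = 0.0403), a call kept in 7 of 13 alternative analyses.

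Loss of Daxx in the oocyte, the comparison the study was built on, was not followed by a detected change of any respiratory chain gene. In knockout against control oocytes 0 of 80 members tested passed edgeR's test, where 0.583% of all 14235 genes passed. Only 3 members had an unadjusted p under 0.05, against 10.3% of all genes tested, and DESeq2 and limma-voom also called 0 members. The median log2 fold change was 0.04, and fitted folds ran from 0.642 to 1.28. For 79 of the 80 members the approximate 95% interval of the fold change lay within 2-fold in either direction. These intervals are narrower than edgeR's test implies, so this count may be too high. For Ndufs4 the log2 interval, -0.264 to -0.011, left out 0 although edgeR's unadjusted p was 0.0539. The summed level in knockout oocytes was 102.6% of that in control oocytes, and by complex 100.8% to 105.9%.

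The member with the smallest p in oocytes was Atp5g3, 1 of the 3 c ring genes. It had 10.4, 12.1 and 12.1 CPM in knockout oocytes and 8.16, 9.25 and 9.42 CPM in control oocytes. The 3 knockout libraries lay above the 3 control libraries (log2 0.35 ± 0.106 SE, approximate 95% interval 0.14 to 0.56, edgeR adjusted p = 0.223). Ndufa11 had 7.67, 9.04 and 8.05 CPM in knockout oocytes and 6.94, 5.58 and 7.11 CPM in control oocytes (log2 0.32, edgeR adjusted p = 0.404). Cox4i2 had 0.76, 0.851 and 0.715 CPM in knockout oocytes and 1.78, 1.01 and 0.833 CPM in control oocytes (log2 -0.64, edgeR adjusted p = 0.512), and its libraries overlapped. Ndufs4 had 29.2, 31.8 and 30.1 CPM in knockout oocytes and 33, 33.1 and 32.8 CPM in control oocytes (log2 -0.14, edgeR adjusted p = 0.496). Ndufa6 had 16.9, 19.5 and 15.8 CPM in knockout oocytes and 14.9, 16.1 and 14.2 CPM in control oocytes (log2 0.19, edgeR adjusted p = 0.523). In 8 members all knockout libraries lay above all control libraries and in 1 below, where the shares over all genes were 10.1% and 5.66%.

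In maternal knockout against control 2-cell embryos, 0 of 78 members passed, where 0.026% of 15414 genes passed. Daxx itself did not pass here (log2 -0.75, edgeR adjusted p = 0.544). The test had 2 against 3 libraries, and 1 member had an unadjusted p under 0.05, against 3.19% of all genes. DESeq2 and limma-voom called 0 members. The median log2 fold change was -0.02, fitted folds ran from 0.548 to 1.71, and for 62 members the approximate 95% interval lay within 2-fold. Here too the intervals are narrower than edgeR's test implies, so this count may be too high. For Ndufa4 the log2 interval, 0.027 to 0.919, left out 0 although edgeR's unadjusted p was 0.0528. Precision was lower than in oocytes: the median distance from a fold change to the end of its interval was 0.52 on the log2 scale in embryos and 0.18 in oocytes. The 1 member was Uqcrfs1, with 22 and 20.0 CPM in maternal knockout embryos and 27.6, 26.2 and 31.1 CPM in control embryos (log2 -0.47 ± 0.184 SE, edgeR adjusted p = 1.00). Ndufa4 had 23.8 and 23.8 CPM in maternal knockout embryos and 14, 22.3 and 13.8 CPM in control embryos (log2 0.47), and Ndufa9, an accessory subunit of the quinone-binding arm, had 8.73 and 7.05 CPM in maternal knockout embryos and 10.9, 8.67 and 12.6 CPM in control embryos (log2 -0.47). Ndufa5 had 1.34 and 1.3 CPM in maternal knockout embryos and 0.501, 0.888 and 0.868 CPM in control embryos (log2 0.77) and Cox7c had 0.474 and 0.773 CPM in maternal knockout embryos and 0.723, 0.888 and 1.69 CPM in control embryos (log2 -0.87), both with few reads. Atp5j had 24.7 and 22.6 CPM in maternal knockout embryos and 26.9, 28.2 and 30.2 CPM in control embryos (log2 -0.30), and Gabpa had 442 CPM in maternal knockout embryos and 541 CPM in control embryos. The summed level in maternal knockout embryos was 100.7% of that in control embryos, and by complex it ran from 92.46% for complex III to 115.6% for complex II. For complex II both maternal knockout libraries, at 48.6 and 53.0 CPM, lay above the control libraries, at 42.3, 48.2 and 41.4 CPM; this sum was not tested, and none of its 4 genes passed. In 4 members all maternal knockout libraries lay above all control libraries and in 6 below, where the shares over all genes were 11.4% and 6.38%.

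**Figure D5:**
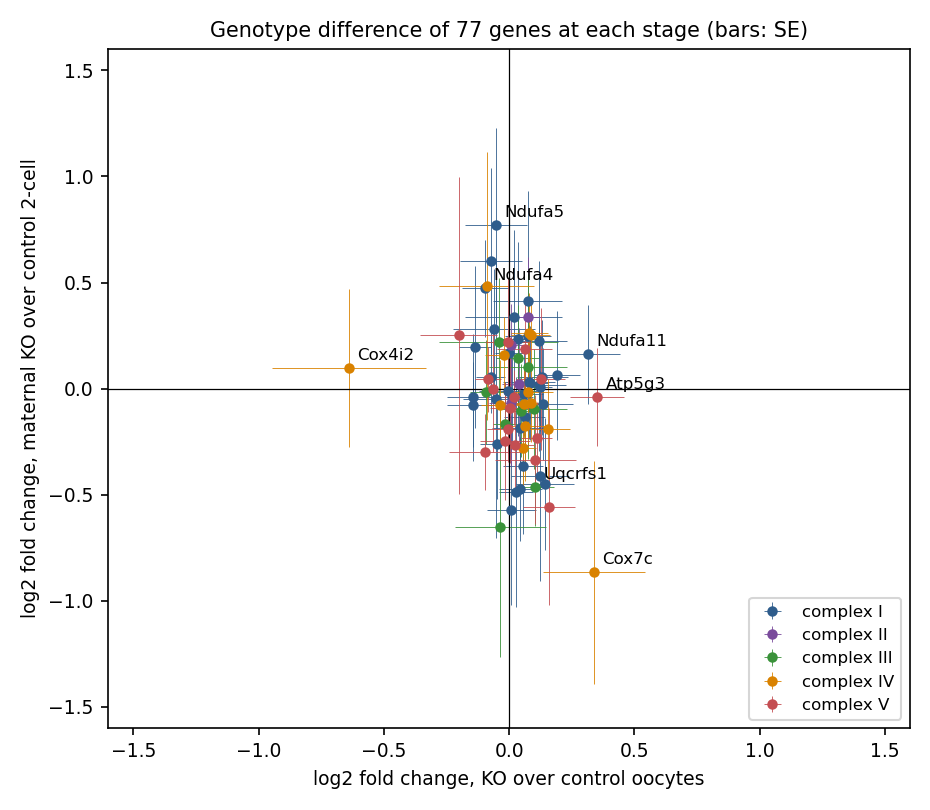
Log2 fold change of knockout over control oocytes (x axis) and of maternal knockout over control 2-cell embryos (y axis) for the 77 members tested at both stages, coloured by complex, with SE bars. Points cluster at 0 on both axes, no member passed the adjusted test at either stage, and the spread and bars are wider in embryos.

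The genotype effect in embryos minus that in oocytes, which equals the difference of the stage changes between genotypes, was tested over all 11 libraries. Of 81 members 0 passed, where 0.0118% of 17018 genes passed, and 7 had an unadjusted p under 0.05, against 5.41% of all genes. DESeq2 and limma-voom called 0 members. The smallest p was that of Uqcrfs1 (log2 -0.58 ± 0.158 SE, edgeR adjusted p = 0.912, DESeq2 adjusted p = 0.164). Next came Ndufa9 (log2 -0.53), Cox7c (log2 -1.24), Ndufa5 (log2 0.81), Ndufb9 (log2 -0.60) and Cox4i1 (log2 -0.35), all at edgeR adjusted p = 0.912. A member near Daxx on chromosome 17, Ndufa7, had 16.2, 17.2 and 13.5 CPM in knockout oocytes and 14.5, 14.9 and 12.8 CPM in control oocytes. It had 5.65 and 5.02 CPM in maternal knockout embryos and 4.34, 4.96 and 5.77 CPM in control embryos, and its genotype effects were log2 0.13 in oocytes and 0.05 in embryos, with edgeR adjusted p = 0.741 and 1.00.

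Genes that build or serve the respiratory chain were also counted in the control stage comparison, by lists chosen with earlier results of these data known. Their counts are read beside the 40% of all genes tested that fell and the 43.1% that rose. A list of 8 subunits and associated chain proteins outside the symbol rule had all its genes lower (median log2 -1.69). Among them was Cox7a2l, a supercomplex factor, at 5.75 CPM in control embryos and 59.2 CPM in control oocytes (log2 -3.39). Cycs, cytochrome c, had 3.29 CPM in control embryos and 11 CPM in control oocytes. Mitochondrial ribosomal protein genes had 52 of 77 lower and 13 higher (median log2 -1.08). Assembly factors of complex I had 10 of 17 lower and 5 higher (median log2 -1.08), those of complex IV 13 of 23 lower and 5 higher (median log2 -0.99), and those of complexes II, III and V 7 of 13 lower and 4 higher (median log2 -0.48). Dmac1, a complex I factor, had 0.441 CPM in control embryos and 20.0 CPM in control oocytes, while Timmdc1, another, had 51.8 CPM in control embryos and 5.24 CPM in control oocytes. Sco1, which delivers copper to complex IV, had 70.2 CPM in control embryos and 3.36 CPM in control oocytes, and Lrpprc, which stabilizes mitochondrial mRNA, had 26.6 CPM in control embryos and 115 CPM in control oocytes.

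Regulators of mitochondrial biogenesis and of mitochondrial DNA expression had 13 of 24 higher and 9 lower (median log2 0.72), near the shares over all genes. Gabpa had 541 ± 43.9 CPM in control embryos and 0.805 ± 0.160 CPM in control oocytes (log2 9.36; SD, n = 3 each). Yy1 had 260.2 ± 13.5 CPM in control embryos and 7.45 ± 1.21 CPM in control oocytes (log2 5.10). Pprc1, a coactivator, had 356 ± 47.4 CPM in control embryos and 43.4 ± 1.14 CPM in control oocytes (log2 3.01). Nrf1 had 92.0 CPM in control embryos and 118 CPM in control oocytes (log2 -0.38, edgeR adjusted p = 0.0143). Tfam, which packages mitochondrial DNA, had 11.2 CPM in control embryos and 27.5 CPM in control oocytes (log2 -1.32). Ubiquinone synthesis genes had 7 of 13 lower and 3 higher, and genes of mitochondrial fusion, fission and shape had 8 of 17 lower and 8 higher, with Yme1l1, an inner membrane protease, at 185 CPM in control embryos and 15.1 CPM in control oocytes. In knockout against control oocytes 1 of the 189 genes of these lists tested passed (0.529%, against 0.583% of all genes): Ppargc1b, a coactivator of oxidative metabolism, had 32.0 ± 2.82 CPM in knockout oocytes and 21.2 ± 2.60 CPM in control oocytes (log2 0.58, edgeR adjusted p = 0.0182; SD, n = 3 each). In maternal knockout against control embryos 0 of 190 passed edgeR's test, 6 had an unadjusted p under 0.05, and DESeq2 and limma-voom called 0.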

How the data were processed

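The 11 libraries were prepared with the SoLo RNA-Seq kit, per the labels' protocols. The authors deposited 1 table of counts per gene, whole numbers of reads with no normalization, together with gene widths. STAR 2.5.0a, SAMtools and the build GRCm38 (mm10) are named in the submitters' processing notes. For the counting program and its use of strand: not given in the sources used here. Of 24421 Entrez identifiers 24387 matched a gene symbol, and the 34 others held at most 0.0325% of the reads of a library. No per-sample column was left out (0). No 2 replicates agreed within sampling noise.

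From the counts, CPM was computed on library totals. Genes were tested with edgeR 4.0.16 in R 4.3.3 (TMM factors, filterByExpr with at least 10 reads and 15 in total, robust glmQLFit, glmQLFTest), with Benjamini-Hochberg adjustment over all genes tested and a threshold of 0.05; the SE is the log2 fold change divided by the root of F, and 95% intervals are 1.96 SE to each side. The factor of 1.96 does not allow for the small number of libraries, so these intervals are approximate and narrower than edgeR's test implies. Each comparison used its own groups, and the difference of effects used all 11 libraries. DESeq2 1.42.0, limma-voom (limma 3.58.1), other scaling and filters, a replicate block and leaving out each library were alternatives. The edgeR step was tested on simulated counts.

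Members and lists were chosen with earlier results of these data known. Named members were those with the 3 largest rises and falls per complex at 10 CPM or more, the 6 smallest p per genotype comparison, complex II, isoform families, the extremes of level per length and members near Daxx or on chromosome 6 before 30 Mb. Uqcrc1, Ndufs8, Ndufa13, Cyc1, Cox5a, Atp5c1, Atp5h, Atp5o, Gabpa's overlap with Atp5j and the other overlaps were singled out after their values were seen. The values of 1 member are not reported here; it stays in all counts and sums. Exon overlaps used GENCODE M21 (GRCm38); pseudogenes were matches of at least 95% identity over 200 bases.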

Additional observations from a re-analysis of the deposited data

How the results depend on the processing

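In control embryos against control oocytes the calls numbered 11 to 14 higher and 59 to 63 lower over all alternatives, and 11 to 13 higher and 60 to 63 lower when 1 library was left out. In maternal knockout embryos against knockout oocytes they numbered 12 to 14 higher and 61 to 63 lower under other tools, scalings and filters, and 10 to 12 higher and 60 to 62 lower when 1 library was left out. All alternatives gave 0 members in both genotype comparisons and in the difference of their effects. Of the single named members in the control stage comparison, 437 values kept direction and side of the threshold, 8 lost and 2 gained the call, and in the knockout stage comparison 421 kept and 14 lost it; 0 reversed in either. The lost calls included Cox7a2 in controls (adjusted p 0.0167 to 0.157) and, in knockouts, Atp5g1 (0.00298 to 0.322) and Cox8c (0.0182 to 0.154). Outside that set, Ndufa13 lost its call in controls without control oocyte replicate 2 or 3. Cyc1 lost its call in knockouts without knockout oocyte replicate 2 or 3 or maternal knockout embryo replicate 3. DESeq2 scaling moved the median log2 stage change of all genes to 0.17 and that of the members to -1.36, and with no low-count filter the median of all genes was 0.34.

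Log2 values near 0 reversed in the genotype comparisons. In oocytes, Ndufa4 ranged from -0.1735 to 0.0131 and Ndufa5 from -0.1432 to 0.0328 (0.0293 without control replicate 2) when 1 library was left out. In embryos, Ndufa7 ranged from -0.0255 to 0.1357 in the same way (-2e-04 without knockout replicate 2) and was -0.0251 with the replicate block, and its difference of effects ranged from -0.1763 to 0.0043. None of these passed a test, and the cause was not tested. Of the 10 members with the highest level per length in control oocytes, 5 remained with annotated exon lengths, which differ from the widths in the table.

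Deviations of same-numbered knockout and control libraries correlated at -0.262, 0.326 and 0.162 in oocytes and at -0.21 and -0.038 in embryos. In groups of so few libraries the deviations are tied to each other, so these values cannot show whether replicate numbers pair the libraries. The replicate block gave 0 members in both genotype comparisons, 11 higher and 62 lower in the control stage comparison, and 12 higher and 62 lower in the knockout stage comparison. Depth limits the members with few reads: Cox7a1, Cox7b2, Cox8b and Cox8c were not tested in the control stage comparison, and 5 members were not tested between embryos.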

Other observations

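Other genes that serve mitochondria also differed between control embryos and control oocytes. Mterf4, which acts on mitochondrial ribosomes, had 8.07 ± 1.6 CPM in control embryos and 101 ± 2.93 CPM in control oocytes (log2 -3.67; SD, n = 3 each). Surf1, an assembly factor of complex IV, changed by log2 -2.92 and Cox16, another, by log2 -2.96. Coq4, needed for ubiquinone synthesis, had 49.5 CPM in control embryos and 7.70 CPM in control oocytes. Markers of sperm summed to 255.1 to 280.0 CPM in maternal knockout embryos, 246.2 to 263.0 CPM in control embryos, 217.9 to 226.8 CPM in knockout oocytes and 206.0 to 213.8 CPM in control oocytes, mostly Odf2. Tnp1 and Tnp2, which define spermatids, were at 0 reads in all oocyte libraries. Other genes of this list had reads there. Prm2 had 5.9, 5.9 and 4.6 CPM in knockout oocytes and 1.6, 1.7 and 2.3 CPM in control oocytes, with every knockout library above every control library. Prm1 had at most 0.106 CPM in knockout oocytes and 0 reads in control oocytes. Gapdhs had 2.8 to 4.5 CPM over the oocyte libraries, and its genotypes overlapped. The source of these reads was not tested. Markers of blood summed to at most 3.96 CPM in any library.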
